A study of Rattus norvegicus with 10 samples.

Results

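The subunit genes of complement C1q, C1qa, C1qb and C1qc, were followed in the hippocampus of 10 rats. They are 3 of the 16643 genes in the deposited table and were taken by Ensembl identifier: ENSRNOG00000012807 for C1qa, ENSRNOG00000012804 for C1qb and ENSRNOG00000012749 for C1qc. The names were given together with these identifiers, since the table holds no symbols and 0 of its identifiers matched the RefSeq gene table used here. The genes were chosen by name, with results of the comparison between lines on these same deposited log2 values in view, so the levels in the 2 lines are given as a description and support nothing by themselves. All 3 genes had passed the authors' filter on low counts and had reads in every library.

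C1q is the recognition molecule of the classical complement pathway. Its A, B and C chains, each with a collagen-like stalk and a globular head, assemble together into one bouquet-shaped protein, which binds antibodies, dying cells and other targets and activates the proteases C1r and C1s. In brain tissue the chains are made mainly by microglia, the resident macrophages, and C1q is known for marking synapses for removal during development and disease.

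The rats were adult males of generation 43 of lines selectively bred for a high (bred High Responder, bHR) or low (bred Low Responder, bLR) locomotor response to novelty, with 5 rats per line. All had 14 days of vehicle injections (saline and water), standard housing and postnatal day 92 as their age. They were tested on the elevated plus maze, an anxiogenic apparatus, and the tissue was taken 1 hour later. They were therefore handled, injected and tested animals, and no untested rats are among the 10. Each animal gave 1 library of polyadenylated RNA from the whole hippocampus and has a social interaction score, for which the labels give no unit.

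The libraries held 29106105 to 48663164 reads in the 16643 genes. Median log2 values lay between 4.10 and 4.12 in all 10 libraries. In bLR replicate 5 the authors' effective library size was 0.933 times the total reads, against 1.00 to 1.02 in the other 9. This library stood apart in its counts too: the chi-square per gene against the other bLR libraries was 131 to 190.4, where the 16 other pairs of one line gave 6.05 to 24.07. Line differences and pair correlations are therefore also given without it. Chain ratios, depth relations, within-line spreads and likeness to other genes are given only with it. The labels name no batch. Tissue and cell type markers were not analysed here, because the identifiers could not be paired with symbols.

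RefSeq (GRCr8) places the 3 genes side by side on chromosome 5 in the order C1qb, C1qc, C1qa, with no other gene between them, and C1qa and C1qb lie on the minus strand. The transcripts of all 3 genes tended to rise and fall together from rat to rat (below, with limits), but the promoter windows used here held none for C1qc. The 250 bases before the start of C1qa (chr5:154419934-154420183, minus strand) and C1qb (chr5:154407828-154408077, minus strand) are therefore shown. They are written 5′ to 3′ on the strand of the gene. Capitals mark the core GGAAGT of the ETS family, to which the myeloid factor PU.1 belongs, or its reverse complement ACTTCC.
C1qa: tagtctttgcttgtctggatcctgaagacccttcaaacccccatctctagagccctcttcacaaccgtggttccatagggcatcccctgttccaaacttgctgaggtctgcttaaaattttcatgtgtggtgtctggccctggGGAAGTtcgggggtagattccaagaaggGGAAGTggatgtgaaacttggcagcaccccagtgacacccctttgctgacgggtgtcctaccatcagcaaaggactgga
C1qb: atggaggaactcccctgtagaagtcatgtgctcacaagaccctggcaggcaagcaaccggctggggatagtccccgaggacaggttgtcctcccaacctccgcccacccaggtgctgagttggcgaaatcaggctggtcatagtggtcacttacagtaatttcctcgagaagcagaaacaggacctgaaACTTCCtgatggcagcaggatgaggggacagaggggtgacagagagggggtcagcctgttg
The core was found 2 times before C1qa, at 107 to 102 and at 79 to 74 bases before the start, and 1 time before C1qb, on the other strand at 61 to 56 bases. It is a common hexamer, present on either strand in 19.2% of 33469 promoter windows of 250 bases. The longer PU.1 motif GAGGAAGT, which contains this core, was in neither window (2.04% of all windows). The TATA box TATAAA (12.9%), the CCAAT box CCAAT (34%) and the AP-1 motif TGANTCA (6.34%) were not in these windows either, on both strands. A match is only a run of letters, and no binding was measured.

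The first comparison asked how the chains differed between the lines. All 3 chains were lower in bHR rats than in bLR rats, and for each chain every bHR rat lay below every bLR rat. The same held for 2.16% of all genes, and 4.15% had lines that did not overlap in either direction. The bLR level was 1.41 times the bHR level for C1qa, 1.31 times for C1qb and 1.39 times for C1qc. Levels are RPM, reads scaled to the authors' library size and not divided by gene length, so they are compared between rats and not between chains.

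C1qa encodes the A chain, which is disulphide-bonded to the B chain in the assembled protein. Its level was 29.3, 26.8, 27.2, 29.6 and 23.8 RPM in bHR replicates 1 to 5. In bLR replicates 1 to 5 it was 40.6, 37.2, 39.0, 39.8 and 35.6 RPM. The highest bHR rat (replicate 4) stayed 0.27 log2 units below the lowest bLR rat (replicate 5). The means were 27.4 ± 2.36 RPM (SD, n = 5) in bHR and 38.4 ± 2.00 RPM (n = 5) in bLR. The difference was -0.49 on the log2 scale (bHR minus bLR, SE 0.062, 95% interval -0.63 to -0.36), from 817 to 1356 reads per bHR library and 971 to 1560 per bLR library.

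C1qb encodes the B chain and had the fewest reads of the 3 genes. Its level was 15.6, 13.9, 12.7, 14.6 and 12.3 RPM in bHR replicates 1 to 5. In bLR replicates 1 to 5 it was 19.0, 18.3, 18.1, 18.3 and 16.5 RPM. The lines came closest here: bHR replicate 1 and bLR replicate 5 were 0.080 log2 units apart, where counting error alone has a standard error of 0.060 and 0.068 in those libraries. The means were 13.8 ± 1.36 RPM (SD, n = 5) in bHR and 18.0 ± 0.934 RPM (n = 5) in bLR. The log2 difference was -0.39 (SE 0.070, 95% interval -0.54 to -0.24), from 422 to 670 reads per bHR library and 449 to 765 per bLR library.

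C1qc encodes the C chain, which pairs with the C chain of a neighbouring unit in the assembled protein. Its level was 21.4, 19.2, 19.2, 21.9 and 17.5 RPM in bHR replicates 1 to 5. In bLR replicates 1 to 5 it was 30.2, 27.9, 27.0, 26.1 and 26.2 RPM. The lines were 0.25 log2 units apart between bHR replicate 4 and bLR replicate 4. The means were 19.8 ± 1.78 RPM (SD, n = 5) in bHR and 27.5 ± 1.68 RPM (n = 5) in bLR. The log2 difference was -0.47 (SE 0.066, 95% interval -0.62 to -0.33), from 602 to 1000 reads per bHR library and 714 to 1167 per bLR library.

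**Figure D1:**
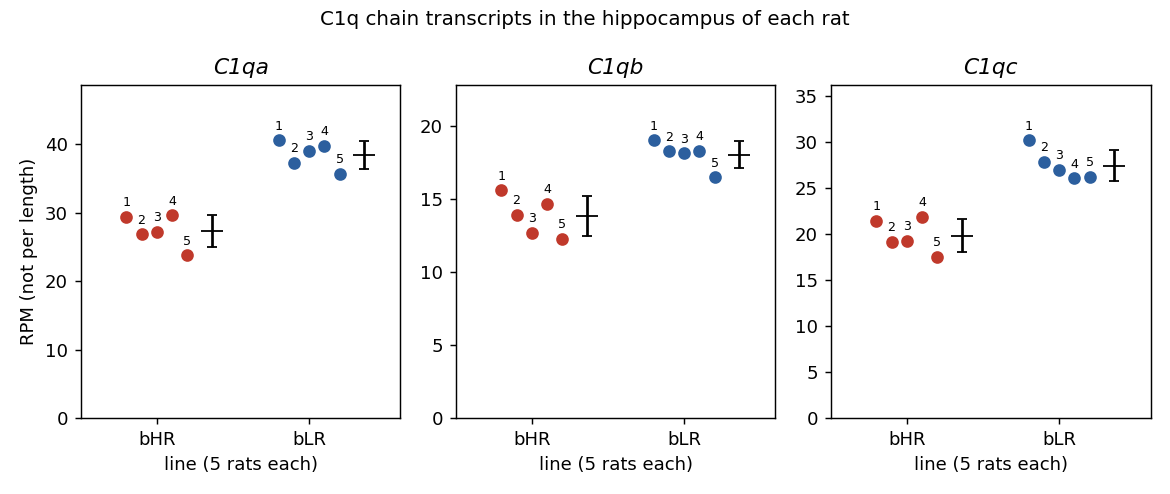
RPM (reads scaled to library size) of C1qa, C1qb and C1qc (vertical axes from 0, a scale of its own for each gene) in each of 5 bHR and 5 bLR rats, with the replicate number above each point and the mean ± SD as a black bar. All bHR points lie below all bLR points in each panel, with the narrowest gap in C1qb.

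These are bulk tissue values, in which fewer cells that make C1q and less C1q RNA per cell cannot be told apart. The limma fit over all genes, at a Benjamini-Hochberg adjusted p under 0.05, called all 3 chains, where 1.38% of the 16643 genes were called in either direction and 0.769% as lower in bHR. Lines that did not overlap, with bHR lower, occurred in 2.16% of all genes, and in either direction in 4.15%. Since the genes were chosen with this contrast known, these counts describe where the chains stand and nothing is read from them. The median difference was -0.47 over the 3 chains and -0.0072 over all genes.

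Among the 1000 genes closest in abundance, 5 differed more between the lines than C1qa, 27 more than C1qb and 11 more than C1qc, in either direction. The median absolute difference of those neighbours in abundance was 0.054, 0.066 and 0.064 log2 units. Over all genes 6.93% differed more than C1qb, many of them with few reads. Among the called genes the median absolute difference was 0.43, between those of C1qb and C1qc. The chains were chosen with this difference known, so their place among other genes is a description and supports nothing.

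**Figure D2:**
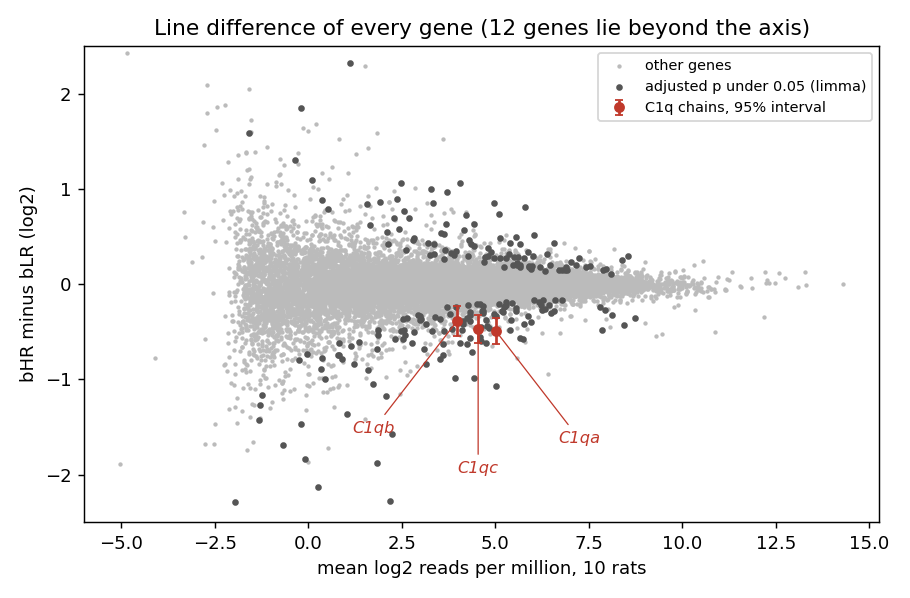
Difference between lines (bHR minus bLR, log2) against the mean log2 RPM over 10 rats for every gene. Red points with 95% intervals are the C1q chains at -0.49 (C1qa), -0.39 (C1qb) and -0.47 (C1qc), dark points are genes with a limma adjusted p under 0.05, grey points are the rest, and 12 genes lie beyond the axis limits of ±2.5.

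C1qa and C1qc were called and kept their direction with any 1 library left out, with differences from -0.52 to -0.44 and from -0.51 to -0.43. C1qb kept its direction (-0.43 to -0.35) but was no longer called without bHR replicate 2 (-0.39), bHR replicate 3 (-0.36), bLR replicate 2 (-0.38) or bLR replicate 3 (-0.39), or with libraries scaled to their total reads (-0.36). With the social interaction score in the model C1qa alone was called, with -0.56, against -0.46 for C1qb and -0.49 for C1qc. Without bLR replicate 5 the differences were -0.52, -0.42 and -0.49. Of all 16643 genes, 108 to 216 were called with 1 library left out, 194 with total-read scaling and 46 with the score in the model. The chains were chosen with this contrast known, so their calls in these fits are a description and support nothing.

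In the table the chains fill 3 consecutive rows. Of the 10 rows before and the 10 rows after them, 0 of 20 genes were called, where 1.38% of all genes were. A difference below 0 was seen in 13, from -0.33 to 0.36 over all 20, and the median over all genes was -0.0072. With so low a share of calls, 20 rows are too few to read anything from these counts. The row order carries no positions, so these rows are not known to be neighbours on the chromosome.

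Ratios of chains within a library do not depend on how libraries are scaled. C1qa stood at 0.99 ± 0.074 log2 units over C1qb (SD, n = 5) in bHR and 1.09 ± 0.037 in bLR, a difference of -0.11 that reflects the smaller line difference of C1qb. The ranges overlapped: bHR rats lay between 0.91 and 1.10, and bLR rats between 1.03 and 1.12. C1qc over C1qb was 0.52 ± 0.065 in bHR and 0.61 ± 0.067 in bLR, a difference of -0.084, also with overlapping ranges. C1qa over C1qc was 0.46 ± 0.027 in bHR and 0.49 ± 0.083 in bLR, a difference of -0.022 that is within the spread of the rats. It was -0.037, -0.038, -0.010 and 0.0093 without bLR replicates 1, 2, 3 and 4, so its sign rests on bLR replicate 4. Each line difference of a ratio was thus far smaller than that of any single chain. The ratios belong to the same contrast and were not tested.

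**Figure D3:**
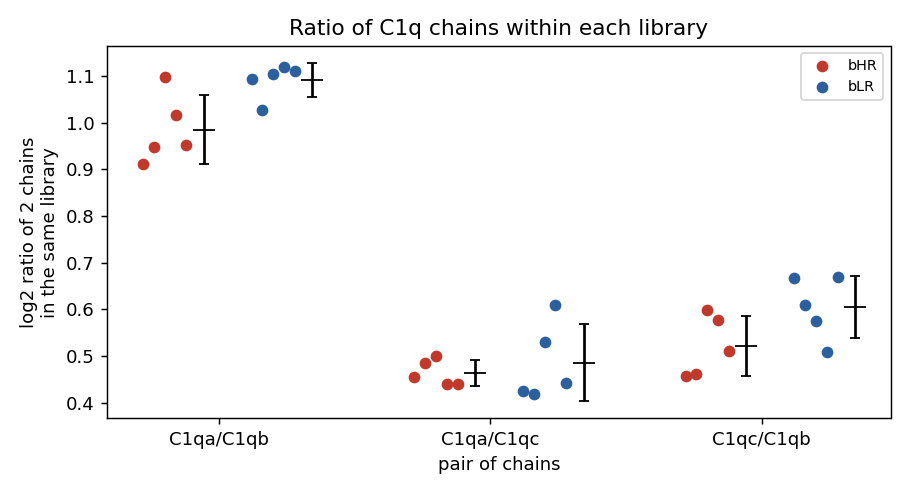
Log2 ratio of the RPM of a pair of C1q chains in the same library, for 5 bHR and 5 bLR rats, with the mean ± SD as a black bar. The lines overlap in all 3 ratios, and the line means differ by -0.11 (C1qa/C1qb), -0.022 (C1qa/C1qc) and -0.084 (C1qc/C1qb).

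The second question was whether the chains vary together among rats of the same line. This used the deviations of each rat from its line mean, which do not hold the line difference. Over all rats the chains tended to rise and fall together. The correlations were lower without the rats at the ends and with same-numbered rats paired across lines (both below). In bHR replicate 5 all 3 were low, by -0.20 (C1qa), -0.17 (C1qb) and -0.17 (C1qc) log2 units. In bHR replicate 4 all 3 were high, by 0.12, 0.088 and 0.14, as they were in bHR replicate 1, by 0.11, 0.18 and 0.11. In bLR replicate 1 they were 0.079, 0.077 and 0.14 above the line mean, and in bLR replicate 5 they were at -0.11, -0.13 and -0.066.

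The rats between these were less uniform. In bHR replicate 3, C1qb lay at -0.12 while C1qa was at -0.0037 and C1qc at -0.040. In bLR replicate 4, C1qc lay at -0.073 while C1qa was at 0.051 and C1qb at 0.023. Deviations of bHR replicate 2, bLR replicate 2 and bLR replicate 3 lay between -0.045 and 0.022 for all chains.

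Over the 10 rats the deviations of C1qa and C1qb correlated with Pearson's r = 0.86 (two-sided exact permutation p = 0.0060) and Spearman's rho = 0.88 (exact p = 0.0063). C1qa and C1qc gave r = 0.84 (exact permutation p = 0.0088) and rho = 0.73 (exact p = 0.035). C1qb and C1qc gave r = 0.83 (exact permutation p = 0.012) and rho = 0.75 (exact p = 0.031). After Benjamini-Hochberg adjustment over the 3 pairs the exact p was 0.012 for each r, and 0.019, 0.035 and 0.035 for the rho values. Within bHR alone r was 0.86, 0.98 and 0.89 for these pairs, and within bLR alone 0.88, 0.49 and 0.67, each over 5 rats and without a test. Without bLR replicate 5, the library that stood apart and was low in all 3 chains, r was 0.83, 0.84 and 0.83 (adjusted exact permutation p = 0.043, 0.036 and 0.036). Chains of 1 library share its scaling factor, whose part in the correlations was not tested. With libraries scaled to total reads, another factor shared by the chains, r was 0.90, 0.88 and 0.87.

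**Figure D4:**
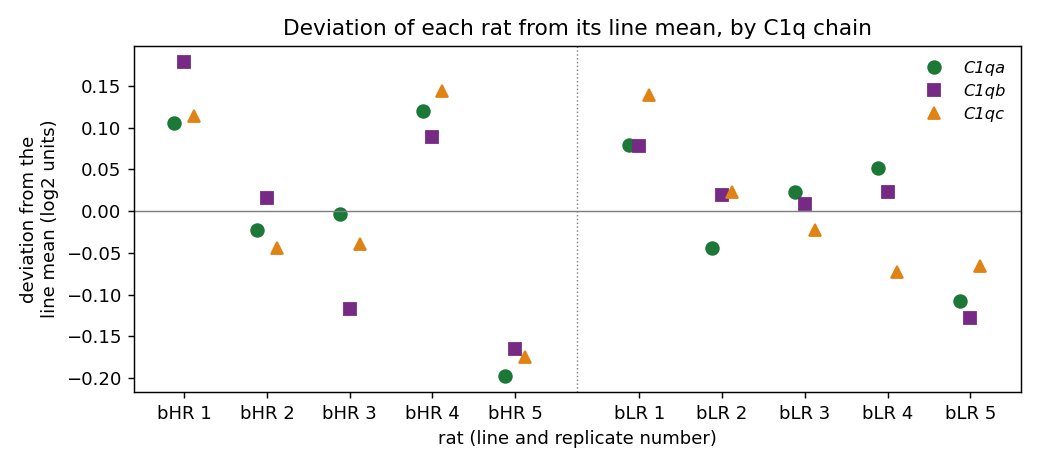
Deviation of each rat from the mean of its line, in log2 RPM, for C1qa, C1qb and C1qc. The chains lie together below 0 in bHR replicate 5 and bLR replicate 5 and above 0 in bHR replicates 1 and 4 and bLR replicate 1.

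Leaving out the rats at the ends lowered the correlations. Without the 2 rats farthest from the median, r was 0.70 for C1qa and C1qb (exact permutation p = 0.12, without bHR replicate 5 and bLR replicate 5) and 0.71 for C1qa and C1qc (exact permutation p = 0.12, without the same rats). For C1qb and C1qc r was 0.71 without bHR replicates 1 and 5 (exact permutation p = 0.097). Direction stayed positive, but the relation no longer passed the threshold in the 8 rats left. Whether that comes from the rats left out or from the smaller number was not tested. Without bHR replicate 5 alone, C1qa and C1qc (r = 0.72) and C1qb and C1qc (r = 0.74) no longer passed, each with an adjusted exact permutation p of 0.073.

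The spread within lines was larger than counting error and ordinary for genes of this abundance. The pooled within-line SD was 0.10 log2 units for C1qa, 0.11 for C1qb and 0.11 for C1qc, where counting error had a standard error of at most 0.050, 0.070 and 0.059. Of the 1000 genes closest in abundance, 28.5% had a larger within-line SD than C1qa, 39.8% than C1qb and 34.7% than C1qc. The bHR SD was the larger for each chain, at 0.13, 0.14 and 0.13 against 0.076, 0.077 and 0.086 in bLR, which was not tested.

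Read depth was set beside these deviations. Over the 10 rats the deviation of log2 total reads from its line mean correlated with that of C1qa at r = 0.33 (exact permutation p = 0.43) and rho = 0.24 (exact p = 0.56), and with that of C1qb at r = 0.13 (exact permutation p = 0.74) and rho = 0.15 (exact p = 0.72). For C1qc it was r = 0.51 (exact permutation p = 0.19) and rho = 0.61 (exact p = 0.090). Adjusted over the 3 chains the exact p was 0.56 to 0.74 for r and 0.27 to 0.72 for rho. Without bHR replicate 3 and bLR replicate 2, the rats farthest from the median in depth, r was higher for each chain, at 0.63, 0.51 and 0.80 (exact permutation p = 0.17, 0.29 and 0.040, not adjusted). The r with depth was highest for C1qc, but over the 10 rats no chain passed after adjustment. The order of the chains and the part of depth in their shared variation were not tested.

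As a description, the other chains were near the top of all genes in likeness to each chain. Of 13795 genes with a mean log2 value of at least 1, C1qb ranked 8 and C1qc ranked 19 by r with C1qa. By r with C1qb, C1qa ranked 15 and C1qc ranked 25, and by r with C1qc, C1qa ranked 16 and C1qb ranked 20. Genes of other names thus tracked a chain as closely as its partners did over 10 rats.

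Likeness to the mean deviation of the 3 chains was taken over 13793 other genes, again over 10 rats and with no test. It exceeded an r of 0.9 in 2 genes and 0.8 in 38. As many genes, 38, lay below -0.8, and the most negative value (-0.95) was farther from 0 than the most positive (0.92). The 2 closest genes were ENSRNOG00000005042 (r = 0.92) and ENSRNOG00000013202 (r = 0.92). ENSRNOG00000005042 was at 3.50 to 4.96 RPM in bHR and 4.27 to 5.19 in bLR, a log2 difference of -0.14 (SE 0.099) with overlapping lines. ENSRNOG00000013202 was at 5.95 to 7.09 RPM in bHR and 5.81 to 6.55 in bLR, a difference of 0.068 (SE 0.067). Of the 5 genes most like C1q, 0 were called between lines, where 1.38% of all genes were, and 3 had a difference below 0. With 5 genes nothing is read from these counts.

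The third question was whether C1q went with the social interaction score once the line was accounted for. A limma model held both terms, line and score. The score was no part of how the genes were chosen. No chain did: 0 of 3 passed, as did 0 of 16643 genes (0%). At an unadjusted p under 0.05 there were 0 of 3 chains and 7.11% of all genes, and limma with voom weights also gave 0 genes past the adjusted threshold.

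The slope of C1qa was 0.0074 log2 units per score point (SE 0.0057, 95% interval -0.0051 to 0.020, limma adjusted p = 0.80). For C1qb it was 0.0082 (SE 0.0064, interval -0.0060 to 0.022, limma adjusted p = 0.81), and for C1qc 0.0016 (SE 0.0065, interval -0.013 to 0.016, limma adjusted p = 0.97). Leaving out single rats moved these values. Without bHR replicate 5 the C1qa slope was 0.0092 with an interval of 0.00060 to 0.018, which no longer held 0 (unadjusted p = 0.038 and adjusted p = 0.68 in limma). The C1qb slope was 0.0040 without bHR replicate 1 and 0.015 without bLR replicate 4, both with intervals that held 0. With all rats the intervals hold slopes of either sign, so these data do not show that C1q is unrelated to the score. The bHR scores were 28.33, 16.67, 17.67, 24.33 and 24 in replicates 1 to 5, and the bLR scores 12.33, 8, 14.33, 24 and 7.33. The pair with the same score of 24, bHR replicate 5 and bLR replicate 4, had 23.8 and 39.8 RPM of C1qa. In that pair C1qb was at 12.3 and 18.3 RPM, and C1qc at 17.5 and 26.1 RPM. Every bHR rat lay below every bLR rat whatever the scores, and bHR replicate 5 was the lowest bHR rat for each chain. The pair holds the score equal, but with 1 rat of each line it gives no spread, and nothing is read from it.

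**Figure D5:**
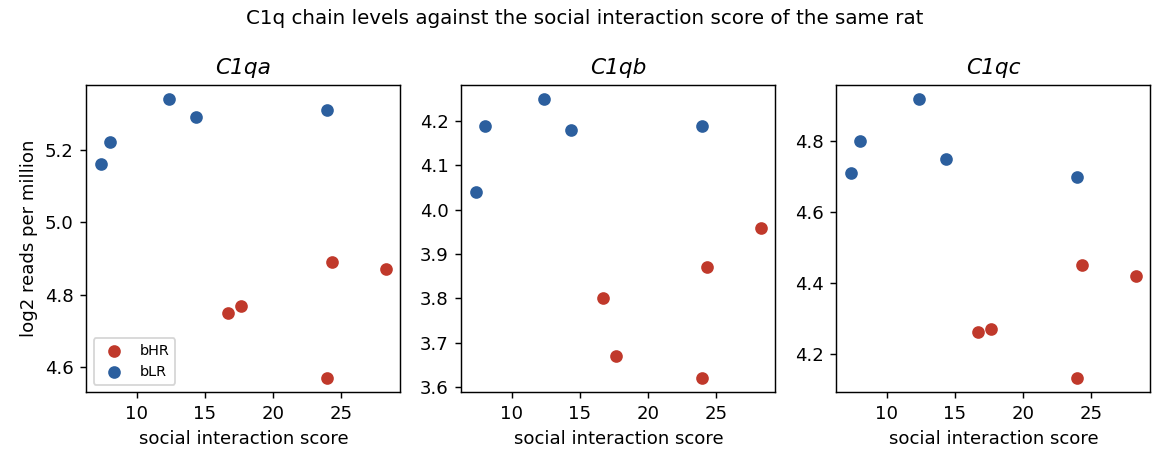
Log2 RPM of C1qa, C1qb and C1qc (vertical axes not from 0) against the social interaction score of the same rat, with bHR in red and bLR in blue. A score of 24 occurs in both lines, and every bHR rat lies below every bLR rat whatever the scores. With all rats the 3 slopes within lines have intervals that include 0.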

How the data were processed

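RNA of the whole hippocampus from 10 rats was sequenced as single reads of 50 bases. Per the labels' protocols, Subread aligned them to Rnor_6.0 and they were summarised to gene counts by featureCounts with Ensembl release 85, and genes with 16 or more counts in at least 5 samples were kept. The authors deposited log2 RPM values from limma voom, and the submitters' processing notes name R 3.2.2. The kit kept strand and the sequencing is described as non-stranded. Whether counting used strand is not given in the sources used, so reads of overlapping genes could be shared. Genes of one family could share reads as well. The rats are separate animals.

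The deposited log2 values were turned back into reads: 100.0% of 166430 values came out whole within 0.01 reads, with an offset of 0.5. Library pairs of one line, 20 in all, differed beyond sampling noise, with a lowest chi-square of 6.05 per gene, so no library was counted again. There were 0 unused sample columns.

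The lines and the score were tested with limma 3.58.1 (R 4.3.3) on the deposited log2 values over all 16643 genes, with an intensity trend and Benjamini-Hochberg adjustment at 0.05. Correlations used exact permutation within lines (14400 orders). The line model and the correlation test were tested on simulated data with known changes. Figures used matplotlib 3.10.9, and tables Python 3.11.15 with pandas 2.3.3 and numpy 2.4.6. The members, the gene lists and the motifs were chosen with earlier results of these data known. The rule for named genes took the 3 chains, up to 4 members of each gene list and the 5 genes most like C1q, of which at most 2 are printed by identifier. The lists of complement, microglial and other cell type genes need symbols and were not used. Promoter windows come from RefSeq (GRCr8), which held 2 of the 3 genes in the table used.

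The alternatives were no intensity trend, genes with a mean log2 value of at least 1, median-shifted, quantile-normalized or total-read libraries, array weights, 2 reads as prior count, the score as covariate, the replicate block and each library left out. Voom weights on recovered reads were added after seeing the data.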

Additional observations from a re-analysis of the deposited data

Results flagged for a closer look

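Outlying rats were searched for by line, in 14 sets of 5 values: the 3 chains, their mean and their 3 ratios. Chance alone gives about 1 such set in 20. One was found: the C1qa over C1qb ratio in bLR, where replicate 2 stood at 1.03 log2 units and the other 4 rats between 1.09 and 1.12. Its gap to the nearest rat was 0.712 of the range, against a critical value of 0.71.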

How the results depend on the processing

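The 230 genes called between lines became 152 without the intensity trend, 46 with the score as covariate, and 108 to 216 without 1 library (135, 109, 108 and 115 without bHR replicates 1 to 4, 121 and 138 without bLR replicates 2 and 3). All 3 C1q line differences kept their direction in the 20 alternatives and moved by less than the spread between rats. The C1q genes called numbered 1 with the score as covariate and 2 or 3 in the other alternatives. For the score, 1 gene passed without the trend and 1 with the replicate block. Without 1 library the C1qa slope ran from 0.0054 to 0.010 and the C1qb slope from 0.0040 to 0.015. The C1qc slope ran from -0.0018 to 0.011 without 1 library, at -0.0018 without bHR replicate 1 and -0.00013 without bLR replicate 5. Without 1 library the correlations ran from 0.80 to 0.94 (C1qa and C1qb), 0.72 to 0.94 (C1qa and C1qc) and 0.74 to 0.88 (C1qb and C1qc). Where a value changed with the 10 libraries kept, the cause was not tested.

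The labels do not say whether shared replicate numbers pair rats across lines. For all 3 chains, replicate 1 was above and replicate 5 below the line mean in both lines. In each of replicates 2, 3 and 4 the lines differed in sign for some chain. Whether a shared order of handling lay behind this was not tested. Over 13796 genes the deviations of same-numbered rats correlated at -0.15 to 0.15, and only 1 of 5 bHR libraries was closest to the bLR library of its number. With the replicate block 108 genes and all 3 chains were called, the score slopes were -0.0045 for C1qa and -0.013 for C1qc, and the correlations were 0.63 (C1qa and C1qb), 0.75 (C1qa and C1qc) and 0.40 (C1qb and C1qc) over 5 differences, with adjusted exact permutation p of 0.36, 0.36 and 0.55. With total-read scaling 112 genes were called higher and 82 lower in bHR, against 102 and 128. Count tests (edgeR and DESeq2) on the recovered reads were not run, and limma with voom weights took their place. At 422 to 765 reads C1qb carries the largest counting error of the 3 chains.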
